A study of Mus musculus with 12 samples.

Results

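The genes described here are 10 that mouse skeletal muscle uses to control its own breakdown: 7 ubiquitin ligase genes (Fbxo32, Trim63, Fbxo30, Fbxo31, Fbxo21, Trim32 and Mul1) and 3 genes of FoxO transcription factors (Foxo1, Foxo3 and Foxo4). They were chosen by symbol, and all 10 were found among the 21976 genes present in both deposited count tables. RNA was sequenced from muscle of C57BL/6N mice in 12 libraries, 3 per group, and the labels do not name the muscle taken. Diets began at 6 weeks of age and ran for 18 weeks. Chow mice ate regular chow and HFD mice a high-fat diet, and neither has an injection in its labels. Vehicle mice ate the high-fat diet and received 30% DMSO in corn oil intraperitoneally, daily for 4 days. PCN mice had the same diet and schedule with pregnenolone carbonitrile (PCN) at 50 mg/kg, a steroid that activates the pregnane X receptor in rodents. Libraries are named by group and label number, and the labels do not say that each came from a separate mouse, so p-values measure the spread between these samples, which may be technical.

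Muscle loses mass in fasting, disuse, denervation and glucocorticoid excess largely by tagging proteins with ubiquitin for the proteasome. Insulin and IGF-1 act through Akt to hold FoxO factors in the cytoplasm. When that signal falls, FoxO factors enter the nucleus and switch on the ligase genes Fbxo32 (atrogin-1) and Trim63 (MuRF1), along with genes of autophagy. FoxO activity is set mainly by phosphorylation and location, which RNA sequencing does not measure.

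Promoter sequences are shown for the genes in which a FoxO core was found. RefSeq's promoter table (GRCm38.p6) held 8 of the 10 genes, all but Fbxo32 and Foxo4, which were not searched, and the 250 bases before the start were searched on both strands. The FoxO core GTAAACA was found in 1 of the 8, Trim63, against 3.17% of 32851 promoters. The shorter core TAAACA, which lies within it, was found in Trim63 and Trim32, against 12% of promoters. The glucocorticoid receptor palindrome, GAACA and TGTTC with 3 bases between them, was found in Trim63, against 0.0396% of promoters. The Trim63 window is chr4:134314870-134315119 and the Trim32 window chr4:65604736-65604985, both on the plus strand. Capitals mark the palindrome and the FoxO core (as TGTTTAC) in Trim63, and the shorter core (as TGTTTA) in Trim32.
Trim63: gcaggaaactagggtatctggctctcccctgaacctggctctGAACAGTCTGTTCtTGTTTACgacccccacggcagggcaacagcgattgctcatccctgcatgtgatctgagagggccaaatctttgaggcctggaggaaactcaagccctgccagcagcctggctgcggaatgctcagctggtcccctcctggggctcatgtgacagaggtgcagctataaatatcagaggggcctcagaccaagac
Trim32: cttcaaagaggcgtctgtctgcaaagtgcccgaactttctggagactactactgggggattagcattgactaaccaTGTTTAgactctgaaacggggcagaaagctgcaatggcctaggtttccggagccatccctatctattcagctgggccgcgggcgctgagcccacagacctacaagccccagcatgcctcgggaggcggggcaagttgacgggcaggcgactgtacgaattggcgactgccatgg
In Trim63 the palindrome began 208 bases and the FoxO core 194 bases before the start. In Trim32 the shorter core began 174 bases before it. These matches are descriptions of letters, and binding was not measured in this series.

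Depth was between 12770308 counts in Chow 8 and 19739226 in PCN 27. Levels are CPM, normalised counts scaled to a common library size, set with edgeR's TMM factors over the 12 libraries. The labels give no strand setting for the counting. Fbxo32 and Foxo1 overlap antisense gene models on 186 and 674 exonic bases, but those models held at most 33 and 2 counts in any library. Per kilobase of exon, Trim63 had the highest mean over the 12 libraries (239 CPM per kb) and Fbxo32 the next (147 CPM per kb). Fbxo31 (18.9) and Foxo4 (16.9) followed, then Foxo3 (7.28), Foxo1 (5.18), Mul1 (4.50), Fbxo30 (4.29), Fbxo21 (3.03) and Trim32 (1.41), all in CPM per kb. Fbxo32 ranked between 33 and 124 by CPM among the 21976 genes, depending on the library, and Trim32 between 7699 and 9201. The coefficient of variation over the 12 libraries was 69.1% for Fbxo32, 56.1% for Trim63, 45.7% for Foxo1 and 10.4% for Foxo4. Without PCN 27, a choice made after the data were seen, it was 32.4% for Fbxo32, 55.3% for Trim63 and 41.8% for Foxo1.

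Foxo1 encodes the FoxO factor whose excess in muscle is known to reduce muscle mass. Its gene lies at chr3:52268336-52353221 (plus strand, GRCm38). It had 36.3, 28.5 and 59.2 CPM in Chow 8, 17 and 19, and 88.1, 69.8 and 62.4 CPM in HFD 4, 30 and 38. In the injected groups it had 35.2, 29.9 and 42.9 CPM in Vehicle 15, 23 and 55, and 30.6, 36.0 and 19.0 CPM in PCN 5, 11 and 27. All 3 HFD libraries lay above the other 9, with HFD 38 just above Chow 19, and PCN 27 was the lowest of the 12. The share of all genes with HFD above the other groups in this way was not counted.

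The high-fat diet was first compared with chow. No gene passed an adjusted p of 0.05 with edgeR (0 of 12686, 0%), so none of the 10 members did, while DESeq2 called 44 genes and 0 members. At an unadjusted p below 0.05 there was 1 member, Foxo1, against 7.7% of all genes. Foxo1 was at 73.5 ± 13.2 CPM in HFD and 41.3 ± 16.0 CPM in Chow (SD, n = 3 each). Its log2 fold change was 0.84 ± 0.27 (SE), with an edgeR adjusted p of 0.635. Leaving out 1 library gave 0.62 (without Chow 17, edgeR adjusted p = 0.998) to 1.20 (without Chow 19, 0.0215). The call passed only in the latter of these 6 fits. Groups did not overlap for Foxo1 and Foxo3, both higher in HFD, against 13% of all genes in either direction and 6.14% higher.

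Foxo3, which drives the atrogin-1 promoter and autophagy genes in muscle, lies at chr10:42181841-42276755 (minus strand). It had 58.7, 46.4 and 57.9 CPM in Chow 8, 17 and 19, and 73.2, 60.5 and 63.3 CPM in HFD 4, 30 and 38. The lowest HFD library was just above the highest Chow library. The log2 fold change was 0.29 ± 0.15 (edgeR adjusted p = 0.653). Foxo4, another FoxO factor of muscle, lies at chrX:101254528-101260873 (plus strand) and was at 60.0 ± 8.28 CPM in HFD and 54.5 ± 6.59 CPM in Chow (SD, n = 3 each), with overlapping groups.

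**Figure D1:**
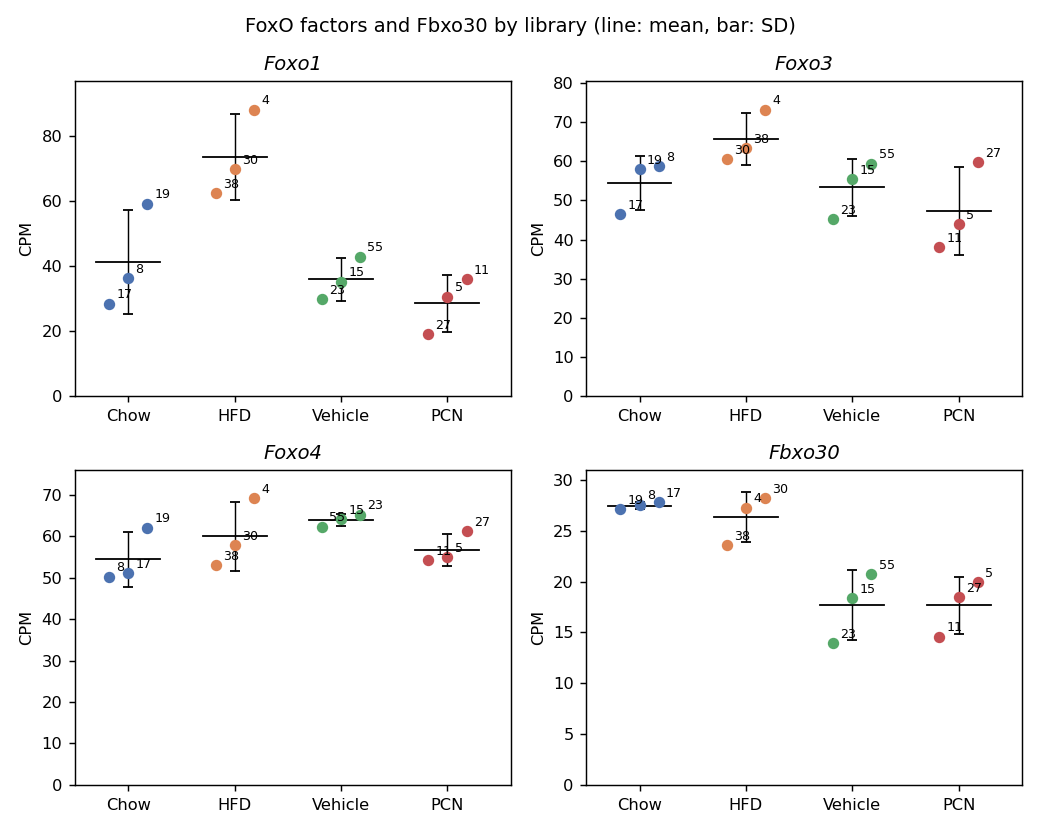
Level of Foxo1, Foxo3, Foxo4 and Fbxo30 in CPM (linear axes from 0) in each library, labelled by its number, by group; lines are means and bars SD of 3 libraries. The HFD libraries hold the 3 highest Foxo1 values, and Fbxo30 is at 13.9 to 20.7 CPM in the injected groups and 23.5 to 28.2 CPM in the others.

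Fbxo32 encodes atrogin-1, the substrate receptor of a cullin ligase whose targets include MyoD and eIF3f (chr15:58175879-58214932, minus strand). It had 1264, 718 and 728 CPM in Chow 8, 17 and 19, and 1366, 928 and 572 CPM in HFD 4, 30 and 38. Each group held 1 library far above its lowest, and the groups overlapped. Trim63 encodes MuRF1, a RING ligase of the sarcomere that acts on myosin heavy chain (chr4:134315120-134329629, plus strand). It had 1306, 531 and 577 CPM in Chow 8, 17 and 19, and 1193, 789 and 529 CPM in HFD 4, 30 and 38. Chow 8 and HFD 4 were the high libraries of their groups for both ligases.

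The diet difference in log2 was 0.09 ± 0.34 for Fbxo32 and 0.07 ± 0.42 for Trim63 (SE; edgeR adjusted p = 0.957 and 0.975). Neither direction was stable: without HFD 4 the values were -0.26 and -0.28, and without Chow 8 they were 0.42 and 0.61. Both also turned negative without Chow 17 (-0.06 and -0.17) and without Chow 19 (-0.04 and -0.12). Of 13 slow-fibre genes tested between the diets, 0 passed with edgeR, and 7 were lower in HFD at an unadjusted p below 0.05. Summed over the 6 of 14 list genes in both tables, the level was 1908 to 4227 CPM in Chow. In HFD it was 1020 to 2507 CPM, ranges that overlap. Much of that sum was Mb, the myoglobin gene, at a mean of 2276 CPM in Chow and 1448 CPM in HFD. Myl3, Tnnt1 and Myh7, of the slow sarcomere, were not among the 6. Between the diets these 3 had the lowest p of the list. Their log2 fold changes were -8.44 ± 2.14, -4.81 ± 1.38 and -6.60 ± 1.91 (SE; edgeR adjusted p = 0.635 for each). A covariate was taken as the mean log2 CPM of the 13 list genes present for the diets. All 13 were fitted lower in HFD (median log2 fold change -1.76), so the covariate shifts with diet. With it the differences were -0.76 for Fbxo32 and -1.02 for Trim63 (edgeR adjusted p = 0.967 for each). The part of fibre type in these values was not tested further. In bulk muscle, fewer cells of a type and less RNA per cell cannot be told apart.

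**Figure D2:**
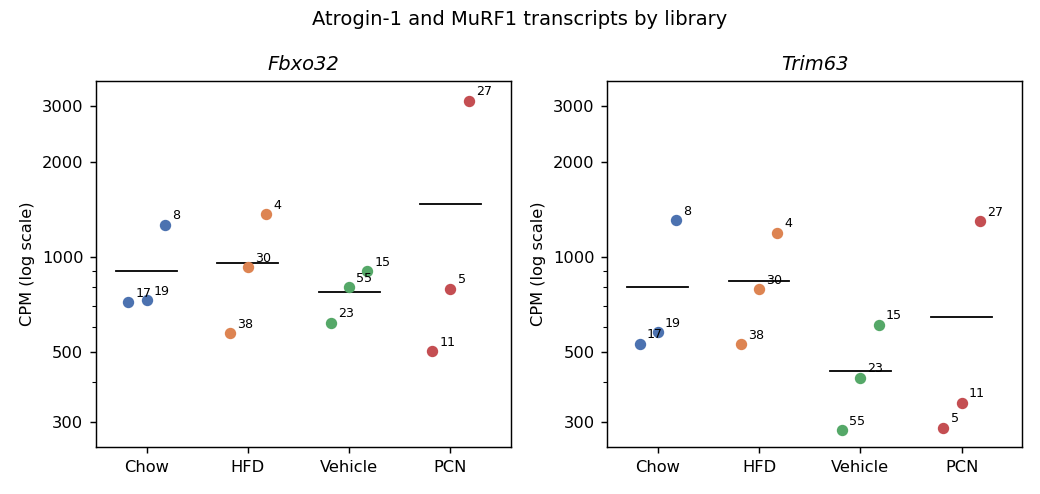
Level of Fbxo32 and Trim63 in CPM (log axis) in each library, labelled by its number, by group; lines are arithmetic means of 3 libraries. PCN 27 stands at 3122 CPM of Fbxo32 and 1295 CPM of Trim63, above the other PCN libraries.

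The other ligases differed little between diets. Fbxo30 (MUSA1, an F-box protein induced in denervated muscle; chr10:11281330-11298052, plus strand) was at 26.3 ± 2.45 CPM in HFD and 27.5 ± 0.341 CPM in Chow (SD, n = 3 each). The log2 differences of Fbxo30, Fbxo31, Fbxo21, Trim32 and Mul1 lay between -0.07 and 0.21, with edgeR adjusted p-values from 0.75 to 0.961. Fbxo31 (chr8:121549440-121578806, minus strand) and Fbxo21 (chr5:117976730-118010201, plus strand) encode further F-box proteins. Trim32 (chr4:65604986-65616238, plus strand) encodes a ligase mutated in limb-girdle muscular dystrophy, and Mul1 (chr4:138434671-138442265, plus strand) one of the mitochondrial outer membrane that acts on mitofusin. Trim32 had the fewest counts of the 10, 54 to 114 per library.

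Genes around the members were read from lists chosen with earlier results of these data known. Between the diets, 0 of 28 FoxO target genes outside the members passed with edgeR, while 2 were higher and 4 lower at an unadjusted p below 0.05. Gabarapl1, an autophagosome gene, had the lowest p of that list, at a log2 fold change of -0.87 ± 0.13 (SE; edgeR adjusted p = 0.241). Sesn3, a sestrin, was at 0.71 ± 0.15 and Txnip, a thioredoxin inhibitor, at -0.78 ± 0.17, and neither passed. None of 28 other muscle ubiquitin ligases passed, with a median log2 fold change of 0.18 against 0 for all genes, 2 higher and 1 lower at an unadjusted p below 0.05. Of 32 genes of insulin and kinase inputs to FoxO, 0 passed adjusted or unadjusted.

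PCN was then compared with its vehicle. With edgeR 0 of 12833 genes passed (0%), hence 0 members, and DESeq2 called 0 genes. At an unadjusted p below 0.05 there were 0 members, against 2.82% of all genes. Fbxo32 had 898, 618 and 801 CPM in Vehicle 15, 23 and 55, and 793, 502 and 3122 CPM in PCN 5, 11 and 27. Trim63 had 609, 414 and 283 CPM in Vehicle 15, 23 and 55, and 288, 345 and 1295 CPM in PCN 5, 11 and 27. PCN 5 and PCN 11 lay below the highest Vehicle library for both genes, and PCN 27 above every Vehicle library.

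Fitted differences for PCN against Vehicle were 0.92 ± 0.65 for Fbxo32 and 0.56 ± 0.61 for Trim63 in log2 (SE; edgeR adjusted p = 0.998 for each). They rest on PCN 27, since without it they were -0.25 and -0.45. Foxo1 was at 28.6 ± 8.69 CPM in PCN and 36.0 ± 6.57 CPM in Vehicle (SD, n = 3 each; log2 fold change -0.34 ± 0.25, SE). Foxo4 had 54.9, 54.3 and 61.3 CPM in PCN 5, 11 and 27, all below the lowest Vehicle library at 62.4 CPM. It was the 1 member of 10 whose groups did not overlap, against 8.28% of all genes (4.3% lower), and its log2 fold change was -0.17 ± 0.14 (edgeR adjusted p = 0.998). Mul1 was at 20.4 ± 2.48 CPM in PCN and 16.7 ± 1.95 CPM in Vehicle (SD, n = 3 each; log2 fold change 0.28 ± 0.17, SE).

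Pathway genes gave 0 calls with edgeR in every list of this comparison. At an unadjusted p below 0.05 there were 0 of 28 FoxO targets, 1 of 28 other ligases and 3 of 32 insulin and kinase inputs. Klhl40, an adaptor of a cullin ligase that stabilises thin filament proteins, was at 0.64 ± 0.20, and Akt1, the kinase that phosphorylates FoxO factors, at 0.71 ± 0.23 (log2, SE; edgeR adjusted p = 0.998 for each).

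Library PCN 27 was looked at singly after its values were seen, so what follows describes 1 library and carries no test. Against the mean of PCN 5 and PCN 11, Fbxo32 was 4.94-fold and Trim63 4.11-fold higher, ranks 1 and 2 among 8177 genes with a mean of at least 5 CPM. Fbxo32 took 66583 counts there, 0.337% of the library, and its CPM was 2.29-fold that of the next library. Trim63 in PCN 27 was 0.992 of its highest level elsewhere, in Chow 8. Fbxo31 was 1.67-fold higher than in the other PCN libraries, while Foxo1 was 0.574-fold.

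FoxO targets in PCN 27 were often at their top level. Of 28 FoxO targets outside the members, 15 (53.6%) were highest of the 12 libraries there, against 24% of all 8177 genes, and 2 were lowest. Each of the other 11 libraries was highest in 3.28% to 10.1% of all genes. The lead of PCN 27 was slight for Txnip (518.5 against at most 517.9 CPM elsewhere) and Sesn1 (45.95 against 45.9 CPM). Eif4ebp1, a translation repressor, was at 237 CPM against 32.2 to 93.6 CPM in the other 11 libraries. Ctsl, a lysosomal protease, was at 199 CPM against 38.8 to 100.5 CPM. Sesn3 went the other way, at 6.99 CPM against 11.5 to 31.2 CPM.

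Other genes of that library bear on this description. The ubiquitin, E1, E2 and cullin core had 10 of 22 genes highest in PCN 27 (45.5%), while other muscle ligases had 4 of 27 (14.8%). Fibroblast and matrix markers had 9 of 14 lowest there (64.3%, against 16.7% of all genes). Its summed level of the 6 shared slow-fibre list genes was 1007 CPM, with PCN 11 at 1030 CPM and PCN 5 at 4330 CPM. It was also the deepest library. The part of these in its ligase levels was not tested.

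**Figure D3:**
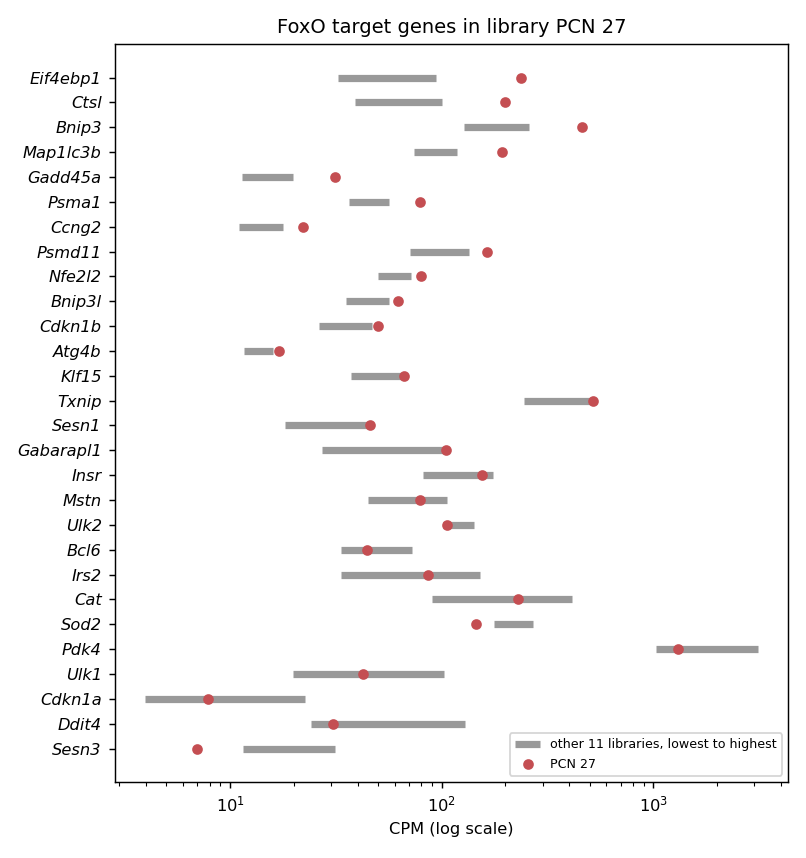
Level in CPM (log axis) of 28 FoxO target genes outside the members: the red point is PCN 27 and the grey bar spans the other 11 libraries. In 15 genes the point lies above the bar, barely so in Txnip and Sesn1, and in Sesn3 and Sod2 below it.

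Vehicle mice were also set against HFD mice. Injection and count table differ together here and cannot be told apart, and HFD and Vehicle libraries serve in the other comparisons too. With edgeR 193 of 12746 genes passed (1.51%; 0.989% lower), and 1 of the 10 members did, lower, while 3 members had an unadjusted p below 0.05, against 17.8% of genes. DESeq2 called 587 of 9035 genes, Foxo1 among them. That member was Foxo1, at 36.0 ± 6.57 CPM in Vehicle against 73.5 ± 13.2 CPM in HFD (SD, n = 3 each), with groups that did not overlap. It fell by 1.03 ± 0.18 in log2 (SE), a fold of 0.489, with an edgeR adjusted p of 0.0344.

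The call did not hold with every library left out. It was lost without HFD 4 (log2 fold change -0.87, adjusted p = 0.123), HFD 30 (-1.08, 0.154), Vehicle 15 (-1.01, 0.121) or Vehicle 23 (-0.91, 0.183), all with edgeR. Fitting all 12 libraries together gave -1.03 ± 0.29 with an edgeR adjusted p of 0.231, where 0% of genes passed. In that fit Foxo1 in PCN against HFD was at -1.37 ± 0.29 (edgeR adjusted p = 0.0274), a contrast in which 4.14% of genes passed, added after the data were seen. Against Chow, also added then, Foxo1 was at -0.207 ± 0.284 in Vehicle and -0.548 ± 0.285 in PCN. Neither passed (edgeR adjusted p = 0.92 and 0.397), where 0.015% and 0.127% of genes did.

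Fbxo30 had 27.5, 27.8 and 27.1 CPM in Chow 8, 17 and 19, and 27.3, 28.2 and 23.5 CPM in HFD 4, 30 and 38. It had 18.4, 13.9 and 20.7 CPM in Vehicle 15, 23 and 55, and 19.9, 14.6 and 18.5 CPM in PCN 5, 11 and 27. Every injected library lay below every uninjected one, the only member of the 10 for which this held, in a count added after the data were seen. Across all genes 1.02% lay lower in this way. Vehicle against HFD gave -0.58 ± 0.16 in log2 (SE; edgeR adjusted p = 0.102). Over the 4 groups Fbxo30 had an F of 9.21 (edgeR adjusted p = 0.0963) and Foxo1 an F of 9.04 (0.102). In that test 0 members passed with edgeR, against 0.179% of genes, and 2 had an unadjusted p below 0.05, against 15.5%. DESeq2 called both, among 771 of 11749 genes.

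Trim63 was at 435 ± 164 CPM in Vehicle and 837 ± 335 CPM in HFD (SD, n = 3 each). Its log2 fold change was -0.95 ± 0.36 (SE; edgeR adjusted p = 0.23), and the groups overlapped. With the mean log2 CPM of the 6 shared slow-fibre list genes as a covariate it was -1.01 (edgeR adjusted p = 0.0099). That fit called 615 of 12746 genes, against 193 without the covariate. In the fit without it, Fbxo32 was at -0.31 ± 0.30 (adjusted p = 0.647). Foxo3 was at -0.31 ± 0.14 (adjusted p = 0.303), and it joined Foxo1 and Fbxo30 as the 3 members whose groups did not overlap, all lower in Vehicle, against 23.3% of all genes (11.1% lower).

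**Figure D4:**
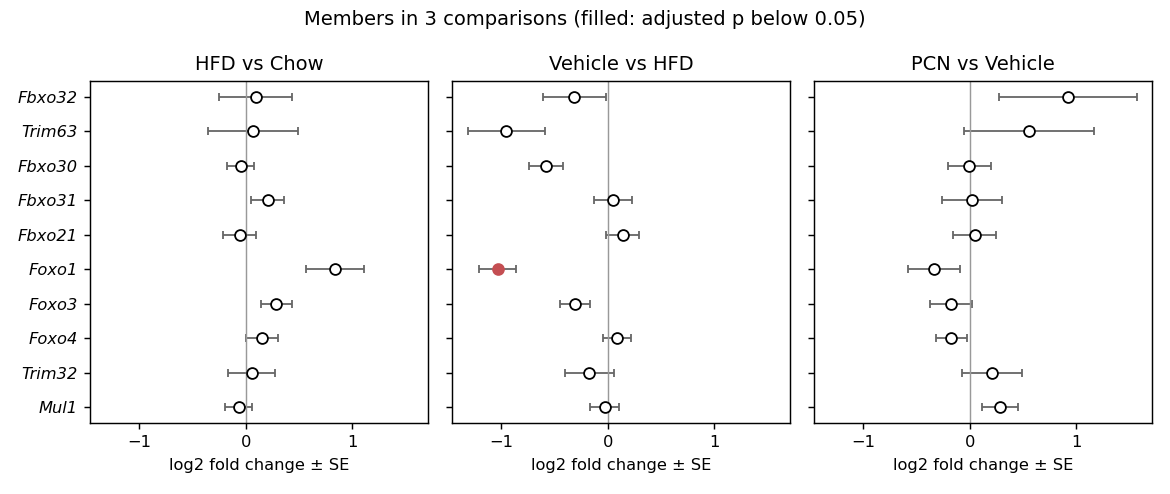
Log2 fold change with its SE (edgeR) of the 10 members in 3 comparisons of 3 against 3 libraries; filled points have an adjusted p below 0.05. Foxo1 in Vehicle against HFD, at -1.03, is the 1 filled point.

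Targets and regulators of FoxO gave a few calls between Vehicle and HFD, where 1.51% of all genes passed. No gene passed without HFD 30, without Vehicle 23 or in the 12-library fit, so none of the calls named here held there. Of 28 FoxO targets, 2 rose and 1 fell: Txnip by 0.77 ± 0.13 and Eif4ebp1 by 0.65 ± 0.12 in log2, while Cdkn1a, a cell cycle inhibitor, was at -1.07 ± 0.19 (edgeR adjusted p = 0.0344, 0.0416 and 0.0356). Of 28 other muscle ligases, 1 fell, Nedd4l at -0.74 ± 0.13 (edgeR adjusted p = 0.0348), and 10 were lower at an unadjusted p below 0.05. Ppargc1a, the coactivator PGC-1α that restrains FoxO in muscle, was at -1.02 ± 0.19 (edgeR adjusted p = 0.0424). Crebbp, an acetyltransferase, was at -0.88 ± 0.18 (edgeR adjusted p = 0.0486). Of 15 fibroblast and matrix markers, 1 fell with a call, Col1a1 (-1.32 ± 0.22, edgeR adjusted p = 0.0344). At an unadjusted p below 0.05, 8 of the 15 were lower and 0 higher, against 17.8% of all genes in either direction. In the fit 13 were lower, with a median log2 fold change of -0.66 against -0.001 for all genes. The summed levels of these markers overlapped (1196 to 2228 CPM in HFD, 1124 to 1494 CPM in Vehicle). Their part in the member values was not tested.

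The balance between the 2 main ligases was read as Fbxo32 over Trim63, each per exonic kb. The ratio was 0.394, 0.551 and 0.514 in Chow 8, 17 and 19, and 0.466, 0.479 and 0.441 in HFD 4, 30 and 38. It was 0.601, 0.609 and 1.15 in Vehicle 15, 23 and 55, and 1.12, 0.594 and 0.982 in PCN 5, 11 and 27. Every injected library lay above every uninjected one, and injection and count table cannot be told apart here. The highest ratios were in Vehicle 55 and PCN 5. Of the 12 libraries, these had the highest summed levels of the 6 shared slow-fibre list genes (4593 and 4330 CPM). They also had the lowest summed fast-fibre levels (96210 and 89750 CPM). PCN 27, at a ratio of 0.982, had a summed slow-fibre level of 1007 CPM, and Chow 17, at 0.551, had 4227 CPM. The part of fibre type was not tested. Vehicle averaged 0.788 ± 0.318 and HFD 0.462 ± 0.0194 (SD, n = 3 each; exact permutation test, two-sided p = 0.1, the smallest that 3 against 3 allows). PCN averaged 0.9 ± 0.274 (against Vehicle, exact permutation test, two-sided p = 1), and Chow 0.486 ± 0.0818 (against HFD, 0.8). These are 3 comparisons of 1 ratio, and none can pass 0.05 in this design.

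**Figure D5:**
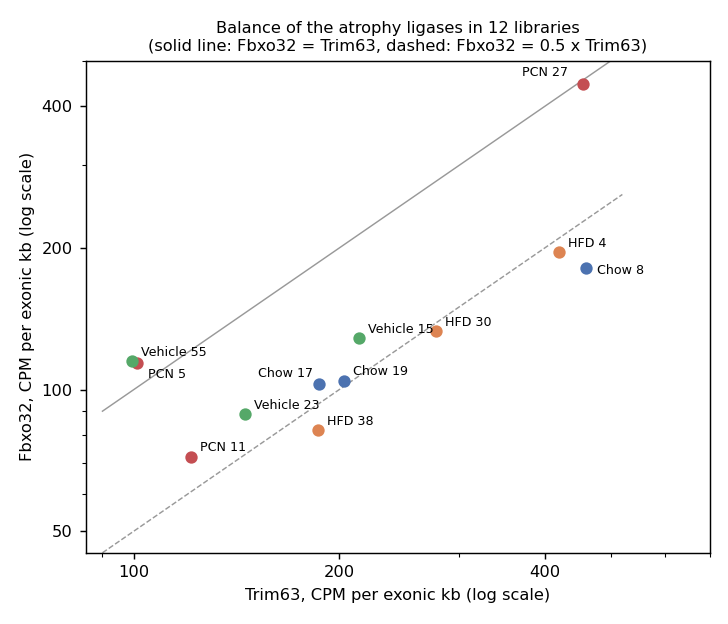
Fbxo32 against Trim63 in CPM per exonic kb (log axes), 1 point per library; the solid line marks equal levels and the dashed line Fbxo32 at 0.5 of Trim63. Chow and HFD libraries lie near the dashed line (ratios 0.394 to 0.551), and PCN 5, PCN 27 and Vehicle 55 near the solid line. Vehicle 15, Vehicle 23 and PCN 11 lie a little above the dashed line (0.601, 0.609 and 0.594).

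Likeness of pattern was measured as Pearson's r of log2 CPM over the 12 libraries, against 8176 genes. The points share libraries, groups and depth, and r is a description. Ranbp2 (0.957), Smcr8 (0.954), Clip1 (0.949), Eif3a (0.947) and Slc15a4 (0.94) were most like Fbxo32. Trim63 ranked 301 in that order, at 0.759, and 66 without PCN 27, at 0.746. Lpin1 (0.915), Tcp11l2 (0.915), Dcaf10 (0.909), Rabgef1 (0.907) and Fbxo28 (0.907) were most like Trim63. Without PCN 27 only 1 of these 5, Tcp11l2, stayed among the top 5 for Trim63. Arhgef11 (0.971), Tulp4 (0.963), Efcab14 (0.958), Palld (0.958) and Hrc (0.957) were most like Foxo1. For Fbxo32 and for Foxo1, 3 of the 5 stayed without PCN 27. Foxo1 and Fbxo32 had an r of -0.26, which was 0.356 without PCN 27, so the sign rests on that library.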

How the data were processed

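RNA of mouse skeletal muscle was measured in 12 libraries, 3 per group, grouped by their titles. Raw, unnormalised counts per gene were deposited by the authors in 2 tables (24093 genes for HFD and Chow, 24453 for PCN and Vehicle), with their own log2 fold changes. Tools in the submitters' processing notes are HISAT2, HTSeq and DESeq2, and the builds there are GRCm38 and mm10. The strand setting, annotation release and tool versions were not given in the sources used here. Total counts were 12770308 to 19739226 per library, and replicates differed far beyond sampling noise. The members and gene lists were chosen with earlier results of these data known.

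Each comparison was fitted on its 6 libraries, over all genes, with edgeR 4.0.16 in R 4.3.3: TMM normalisation, minimum count 10, robust quasi-likelihood F test and Benjamini-Hochberg adjustment at 0.05. The SE was derived from each log2 fold change and its F (size over the root of F). Vehicle against HFD and the 4-group test used the 21976 shared genes. CPM values use TMM over 12 libraries, with exonic lengths from GENCODE M21 (GRCm38). Likeness used a prior count of 2 and genes with a mean of at least 5 CPM. From each list up to 3 genes with the lowest p may be named, and for likeness the top 5. Ctsl, Sod2 and the genes of PCN 27 were named after their values were seen. Alternatives were DESeq2 1.42.0, its size factors, other filters, a slow-fibre covariate, 1 fit of 12 libraries and each library left out. The fits were also run on simulated counts with a single fixed dispersion. Those counts hold no outlying library such as PCN 27, so the run does not cover that kind of spread.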

Additional observations from a re-analysis of the deposited data

How the results depend on the processing

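No paired analysis was possible because the library numbers are unique and no number occurs in more than 1 group. For HFD against Chow, genes called numbered 44 with DESeq2 and 237 with no filter, where 1 member (Foxo1) was called; leaving out 1 library gave 0 to 219 genes and 0 to 1 members. For PCN against Vehicle no filter gave 21 genes, and leaving out 1 library gave 0 genes and 0 members each time. For Vehicle against HFD, DESeq2 gave 587 genes, no filter 571, the slow-fibre covariate 615 and the 12-library fit 0. Members called were 2 with no filter (Fbxo30 and Foxo1), 2 with the covariate (Trim63 and Foxo1) and 0 in the 12-library fit; leaving out 1 library gave 0 to 1180 genes and 0 to 2 members. The 4-group test gave 771 genes with DESeq2 (2 members), 185 with no filter, 13 with a minimum count of 30 and 123 with the covariate; leaving out 1 library gave 3 to 216 genes and 0 to 1 members. The cause of these shifts was not tested.

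Directions turned, all in log2 and without a call. For HFD against Chow the covariate gave -0.76 for Fbxo32, -1.02 for Trim63 and -0.21 for Trim32, and Chow 8 as the only Chow library gave -0.40, -0.64 and -0.17. Leaving out 1 library gave -0.26 to 0.42 for Fbxo32, -0.28 to 0.61 for Trim63, -0.12 to 0.17 for Trim32, -0.131 to 0.073 for Fbxo21 and -0.089 to 0.021 for Fbxo30. For PCN against Vehicle the covariate gave 0.006 for Fbxo30, and leaving out 1 library gave -0.25 to 1.33 for Fbxo32, -0.45 to 0.91 for Trim63, -0.15 to 0.12 for Fbxo30, -0.25 to 0.26 for Fbxo31 and -0.081 to 0.195 for Fbxo21. For Vehicle against HFD it gave -0.576 to 0.048 for Fbxo32, -0.17 to 0.18 for Fbxo31 and -0.127 to 0.026 for Mul1.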
